A study of Mus musculus with 20 samples.

Results

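The oxysterol-binding proteins are a family of lipid-binding proteins, and 10 of its genes are described here in white adipose tissue (WAT) and liver of staggerer mice and their wild-type controls. The genes are Osbp, Osbpl1a, Osbpl2, Osbpl3, Osbpl5, Osbpl6, Osbpl8, Osbpl9, Osbpl10 and Osbpl11. Every array probe that carries one of these names was used, which gave 18 of the 41174 non-control probes, or 10 of the 27962 names that the files give. The genes were selected on earlier results of these same arrays, in which Osbpl3 had stood out in the genotype comparison in liver. The liver genotype values of all 10 genes are therefore given as a description, without a test, and the tests reported are those of WAT genotype and, for the genes other than Osbpl3, of WAT against liver in wild-type mice. The wild-type livers took part in the choice of Osbpl3, so its tissue values are a description too. The array holds 2 further genes of the family, Osbp2 and Osbpl7, which are not among the 10.

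Members of this family carry a ligand-binding domain that holds a sterol, phosphatidylserine or a phosphoinositide, and many of them work where the endoplasmic reticulum (ER) lies close to another membrane. Several bind the VAP proteins of the ER through a short motif, and a pleckstrin homology domain holds them to the partner membrane. There they can exchange a lipid such as cholesterol against phosphatidylinositol 4-phosphate. Most of these roles were worked out in human and other cultured mammalian cells.

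RNA was measured on 20 one-colour Agilent arrays in 4 groups of 5: WAT of sg/sg mice, WAT of wild-type (WT) mice, liver of sg/sg mice and liver of WT mice. The sg/sg mice are homozygous for staggerer, which is a naturally arisen deletion within Rora and so affects every cell. Rora encodes RORα, a nuclear receptor. All mice were C57BL/6 males aged 5 months that had been on a diet with 35% fat for 6 weeks, so no group on another diet bears on these results. Neither the fat depot is named, nor is it stated whether WAT and liver with the same replicate number came from the same mouse.

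Levels are log2 of the processed intensity minus log2 of the 75th percentile of the array. A value of 0 thus equals that percentile, and levels of different probes are not compared with each other. The 75th percentile was 1352 to 2053 intensity units in sg/sg WAT, 1936 to 2598 in WT WAT, 648 to 901 in sg/sg liver and 817 to 1090 in WT liver. All 3 Rora probes were lower in sg/sg mice with no overlap, by 2.72 to 2.75 on the log2 scale in WAT and by 2.81 to 2.88 in liver, where 1 of them was not well above background on any sg/sg array. The labelled tissues carried their markers: all 9 adipocyte markers were above background on every WAT array, and all 8 hepatocyte markers on every liver array, while Lep and Plin1 were above background on no liver array. In WAT, 6 of the 8 hepatocyte markers were above background on every array, with summed levels of 32.1 to 48.7 in sg/sg and 4.95 to 33.8 in WT, against 1330 or more in every liver. In WAT, sg/sg replicate 4 and WT replicate 2 stood apart from their groups, with mean correlations to the other 4 arrays of 0.9767 and 0.9714, against at least 0.983 for every other WAT array. A result is given again without one of these 2 arrays where a call or a direction changed, or where a value moved by over 1.5 times. Fewer cells of a type and less RNA per cell cannot be told apart in RNA from whole tissue.

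The probes that carry the main results are shown because their place in a gene bears on how they are read. Positions are those of the array files, in mouse build mm7. The first of them measured Osbpl3, on the minus strand at chr6:50256951-50257010, and the second measured the same gene further along the minus strand, at chr6:50254001-50254060. The first 30 of their 60 bases are printed.
Osbpl3 A_51_P196844: tgtgcttagcgtagcattgtaagcgctgaa
Osbpl3 A_52_P360308: tatgatgcattgtttcagtctacccttaaa
Osbpl8 had a pair of probes that gave signal, both on the plus strand. The 60 bases of A_52_P121916 are spread over 2165 bases of the genome, at chr10:110742440-110744604, so this probe crosses at least 1 intron and reads spliced RNA. A_52_P370878 lies downstream in a single block, at chr10:110755999-110756058, and its first 30 bases are printed.
Osbpl8 A_52_P121916: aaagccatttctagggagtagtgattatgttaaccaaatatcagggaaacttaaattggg
Osbpl8 A_52_P370878: gaaccataatgtgttcaaagtgtttgtagc

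In WAT, Osbpl3 fell in sg/sg mice. Its product, ORP3, binds VAP proteins and the small GTPase R-Ras and acts at contacts between the ER and the plasma membrane. The brighter probe, A_51_P196844, read -2.63, -2.12, -2.15, -2.40 and -2.03 in sg/sg WAT, against -0.95, -0.18, -1.39, -1.48 and -1.39 in WT WAT. Every sg/sg array lay below every WT array, and WT replicate 2 was the highest. The group means were -2.27 ± 0.24 in sg/sg WAT and -1.08 ± 0.54 in WT WAT (SD, n = 5 each). The difference was -1.19 (SE 0.25), 2.28-fold lower in sg/sg, with an adjusted p of 0.00794 by limma with Benjamini-Hochberg adjustment over all probes tested in WAT. Without WT replicate 2 it was -0.96 (limma adjusted p = 0.00398).

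The WAT arrays lay on 3 slides that each held both genotypes. The brighter Osbpl3 probe had log2 differences, sg/sg minus WT, of -1.09 on slide 4, -0.70 on slide 5 and -1.80 on slide 6. Since its groups did not overlap, the sign on each slide was fixed, and these values show size only. Slide 5 held no WT array but replicate 5. Slide 6 held no sg/sg array but replicate 1, and it held WT replicate 2. The dimmer Osbpl3 probe, A_52_P360308, read -5.02, -6.35, -5.99, -6.18 and -5.63 in sg/sg WAT, against -4.89, -4.34, -5.53, -5.55 and -4.92 in WT WAT. Its groups overlapped, because sg/sg replicate 1 lay above 2 of the WT arrays. The difference of -0.79 (SE 0.30) did not pass the threshold (limma adjusted p = 0.0849). It passed with quantile normalization, at -0.80 (limma adjusted p = 0.0266), and without sg/sg replicate 1, at -0.99 (limma adjusted p = 0.0329), and it was -0.61 without WT replicate 2.

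The call of Osbpl3 in WAT depended on the background correction. With normexp background correction in place of the scanner's own, the brighter probe gave -0.66 (limma adjusted p = 0.227) and the dimmer one 0.81. That correction moved the median change of all probes in WAT to 0.488, from 0.077 in the main setting. Relative to that median, the brighter probe stood at -1.15 under normexp and at -1.27 in the main setting, and the dimmer one at 0.32 and -0.87.

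In liver, both Osbpl3 probes were far lower in sg/sg mice, which is the comparison the gene was chosen by. A_51_P196844 read -4.38, -3.83, -4.41, -4.72 and -4.84 in sg/sg liver, against -1.24, 0.66, 0.27, -0.82 and -0.81 in WT liver. The difference was -4.05 (SE 0.35), 16.5-fold lower in sg/sg, and 6 of the 24675 probes kept in liver had a lower value. In sg/sg liver the probe was well above background on 3 of the 5 arrays. A_52_P360308 was not well above background on any sg/sg liver array, and its WT liver levels were -4.18, -1.86, -2.33, -3.36 and -3.66. Its measured means were -7.35 in sg/sg liver and -3.08 in WT liver. With each sg/sg value raised to the lowest level of any probe above background on that array, it was 4.0-fold lower in sg/sg. That level is not a detection limit of this probe.

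WT livers differed among themselves in Osbpl3, and both probes put WT replicates 2 and 3 highest. The summed level of 9 adipocyte markers, on the linear scale relative to the 75th percentile, was 29.0 and 17.4 in these 2 livers. It was 9.41 to 13.4 in the other 3 WT livers and 7.20 to 10.2 in sg/sg livers. Of the 9 markers, 5 were above background on every WT liver array, while Adipoq, Lep and Plin1 were above background on none. Of the 5 adipocyte markers tested in liver, 1 was lower in sg/sg, Cfd (complement factor D), with a difference of -6.32. Over all genes, 16.3% were called in liver with 1 probe per gene. The part of these markers in the Osbpl3 difference was not tested. Only slide 2 held both genotypes in liver, with 3 sg/sg arrays and 1 WT array, and the difference there was -3.40 for the brighter Osbpl3 probe.

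**Figure D1:**
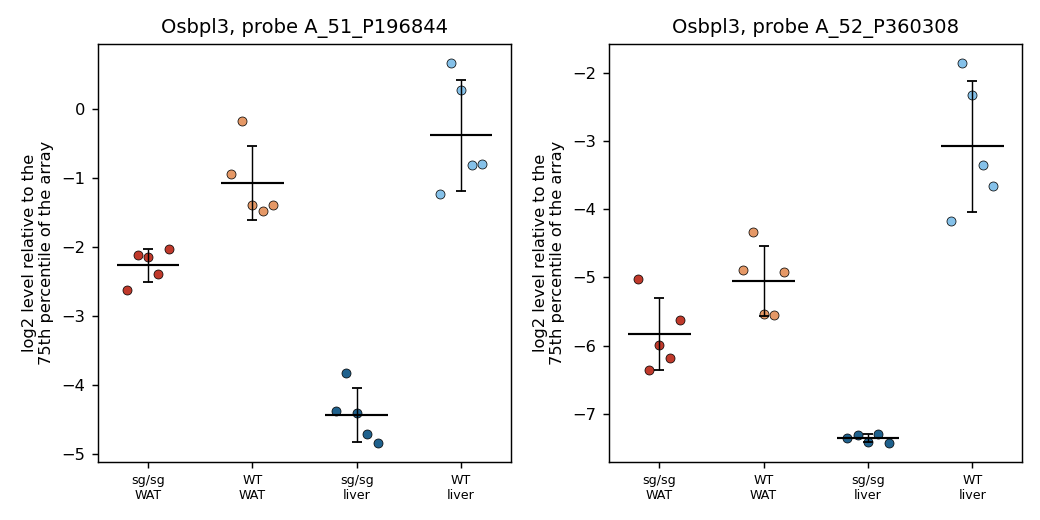
Log2 levels of both Osbpl3 probes relative to the 75th percentile of the array, 1 point per array, in sg/sg WAT, WT WAT, sg/sg liver and WT liver, with the mean (line) and SD (bar) of 5 arrays. The sg/sg points lie below all WT points of the same tissue for A_51_P196844 in both tissues and for A_52_P360308 in liver, where it was not well above background in sg/sg, while the WAT groups of A_52_P360308 overlap.

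Over the 4 groups, the brighter Osbpl3 probe had the order WT liver, WT WAT, sg/sg WAT and sg/sg liver, from high to low. The ranges of WT WAT and WT liver overlapped, and the WT tissue difference was -0.69 (SE 0.32), or -0.91 without WT WAT replicate 2. The dimmer probe had a WT tissue difference of -1.97 (SE 0.36). The genotype difference in WAT minus that in liver was 2.86 for the brighter probe, a value that contains the liver comparison and is given as a description.

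In WAT, 17 of the 18 probes and all 10 genes were bright enough to be tested, meaning that the scanner software placed them well above background on 4 or more of the 10 arrays. Of these 17 probes, 5 passed the threshold of 0.05 after adjustment, 3 higher and 2 lower in sg/sg, against 21.9% of all 32315 probes tested in WAT (12.8% higher and 9.14% lower). The ranges of the 2 genotypes did not overlap for 6 of the 17 probes, against 20.8% of all probes. The median change of the 17 probes was 0.00, against 0.08 for all probes. The probes that passed belonged to Osbpl1a (2 higher), Osbpl10 (1 higher), Osbpl3 (1 lower) and Osbpl8 (1 lower).

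**Figure D2:**
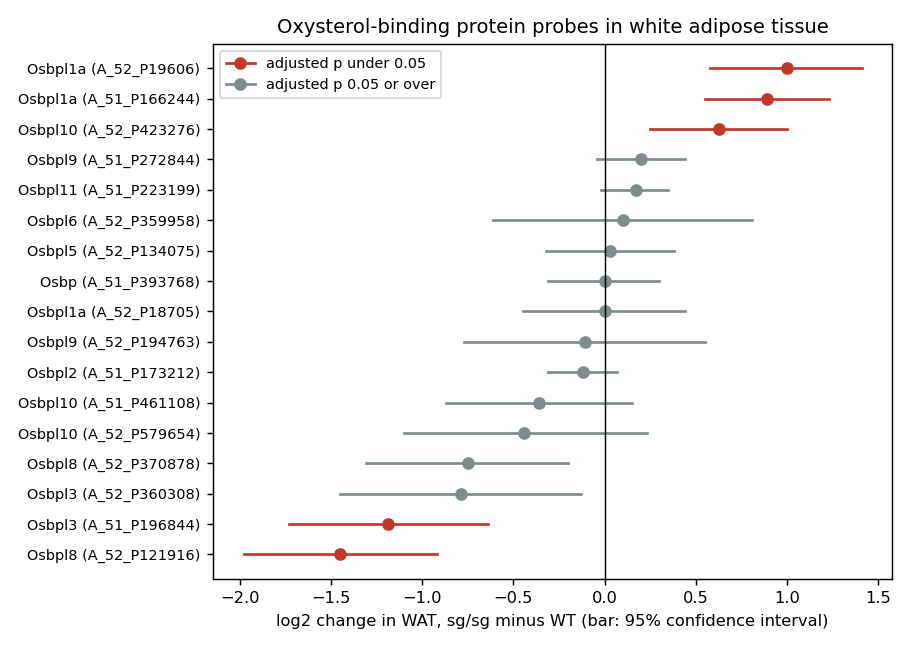
Log2 change in WAT, sg/sg minus WT, for the 17 oxysterol-binding protein probes tested there, with 95% confidence intervals from limma. Osbpl1a probes reach 0.89 and 1.0, while the lowest value is -1.45 for an Osbpl8 probe and the next is -1.19 for Osbpl3.

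Osbpl1a rose in sg/sg WAT. Its product, ORP1, is known from its long form on late endosomes and lysosomes, where it binds Rab7 and senses cholesterol. The leading probe, the brightest of the 3, read 4.29, 4.33, 4.15, 4.07 and 3.80 in sg/sg WAT, against 3.29, 2.77, 3.44, 3.43 and 3.25 in WT WAT. All sg/sg arrays lay above all WT arrays, and WT replicate 2 was the lowest. The difference was 0.89 (SE 0.15), 1.85-fold higher in sg/sg (limma adjusted p = 0.00357), and 0.77 without WT replicate 2. On slides 4, 5 and 6 it was 0.83, 0.72 and 1.19, where the sign was fixed because the groups did not overlap.

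A second Osbpl1a probe, A_52_P19606, gave nearly the same change. It read 1.29, 1.15, 1.05, 1.69 and 0.69 in sg/sg WAT, against 0.20, -0.18, 0.33, 0.43 and 0.11 in WT WAT, again without overlap. The difference was 1.0 (SE 0.19), 1.99-fold higher in sg/sg (limma adjusted p = 0.00498), and this was the 1 member probe that also passed under normexp, at 0.86 (limma adjusted p = 0.0267). The leading probe gave 0.67 there (limma adjusted p = 0.127). Relative to the median of all probes, these 2 values were 0.37 and 0.18, against 0.92 and 0.81 in the main setting.

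The third Osbpl1a probe, A_52_P18705, did not follow the other 2 in the main setting. In mm7 it starts at 13264195 on chromosome 18, minus strand, upstream of A_52_P19606 at 13112344 and of the leading probe, A_51_P166244, at 13105079. Its means were -5.69 ± 0.36 in sg/sg WAT and -5.69 ± 0.31 in WT WAT (SD, n = 5 each), and the difference had a 95% confidence interval of -0.45 to 0.44 (limma adjusted p = 0.998). Without WT replicate 2 or sg/sg replicate 4 it was 0.08 or 0.10 and did not pass. The interval over all arrays leaves out the 0.89 and the 1.0 of the other two. This probe was dim, with mean intensities of 37.3 in sg/sg WAT and 46.1 in WT WAT. Under normexp its change was 1.19 (limma adjusted p = 0.227), or 0.7 relative to the median of all probes. Whether it departs from the other probes is therefore not settled. In liver, the leading probe read 5.45, 5.47, 5.40, 5.84 and 5.52 in sg/sg mice, against 5.84, 5.83, 5.97, 5.77 and 5.63 in WT mice. These groups overlapped, and the 3 probes differed by -0.27, -0.18 and -0.06 in liver.

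Osbpl8 was lower in sg/sg WAT by the probe that crosses an intron. ORP8 is anchored in the ER membrane and, like ORP5, delivers phosphatidylserine to the plasma membrane in exchange for phosphatidylinositol 4-phosphate. A_52_P121916 read -3.18, -2.60, -3.34, -2.70 and -2.96 in sg/sg WAT, against -1.08, -1.03, -1.52, -1.69 and -2.22 in WT WAT. The groups did not overlap, and the change of -1.45 (SE 0.24), 2.73-fold lower in sg/sg, was the lowest of the 17 probes (limma adjusted p = 0.00293). On slides 4, 5 and 6 it was -1.35, -0.93 and -1.82, where the sign was again fixed by the lack of overlap. Under normexp it was -0.82 (limma adjusted p = 0.227), which is -1.31 relative to the median of all probes, against -1.53 in the main setting.

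The brighter Osbpl8 probe, A_52_P370878, read -1.22, -0.81, -1.20, -2.23 and -1.04 in sg/sg WAT, against -0.33, -0.20, -0.74, -0.70 and -0.77 in WT WAT. The groups did not overlap here either, and sg/sg replicate 4 lay far below the other sg/sg arrays. The difference of -0.75 (SE 0.25) missed the threshold (limma adjusted p = 0.0543), and without that array it was -0.52 and passed (limma adjusted p = 0.0285). It also passed with median scaling (limma adjusted p = 0.0384) and with quantile normalization (limma adjusted p = 0.0419). In liver the 2 probes differed by -0.02 and 0.21 between sg/sg and WT, with overlapping groups. The third Osbpl8 probe, A_52_P259497, was above background on 1 WT WAT array and on no other array.

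**Figure D3:**
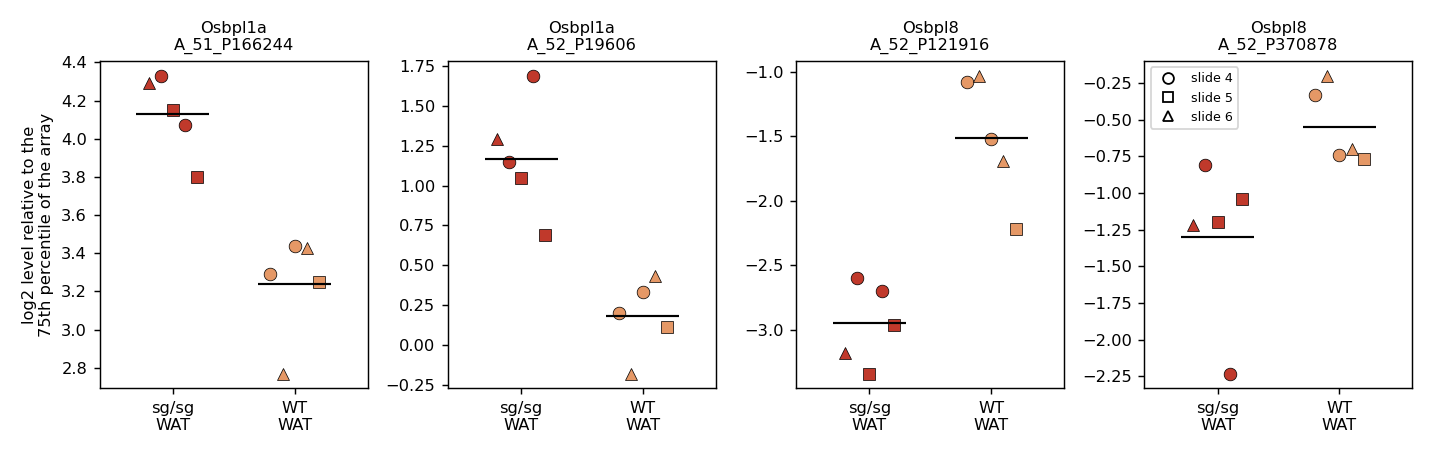
Log2 levels in sg/sg WAT and WT WAT of 2 Osbpl1a probes and 2 Osbpl8 probes, 1 point per array, with the symbol showing the slide (4, 5 or 6) and the line the mean of 5 arrays. In each panel the sg/sg and WT points are fully apart, sg/sg above WT for Osbpl1a and below WT for Osbpl8.

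Osbpl10 gave probes that disagreed. ORP10 binds phosphatidylserine and pairs with ORP9 at contacts between the ER and the Golgi or endosomes. Probe A_52_P423276, named from a cDNA clone, read -6.12, -5.95, -5.87, -5.41 and -5.96 in sg/sg WAT, against -6.12, -6.55, -6.67, -6.81 and -6.30 in WT WAT. The groups touched at -6.12 to the second decimal, with the lowest sg/sg and the highest WT array next to each other. The change of 0.63 (SE 0.17), 1.54-fold higher in sg/sg, passed the threshold (limma adjusted p = 0.0254). It did not pass with median scaling (limma adjusted p = 0.0589), with quantile normalization (limma adjusted p = 0.218) or without any 1 of WT replicate 3, WT replicate 4 and sg/sg replicate 3.

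The other two Osbpl10 probes pointed the other way without passing. The leading one, A_51_P461108, averaged -2.15 ± 0.30 in sg/sg WAT and -1.79 ± 0.47 in WT WAT (SD, n = 5 each), a difference of -0.36 (limma adjusted p = 0.303), and -0.16 without WT replicate 2. A_52_P579654 differed by -0.44 (limma adjusted p = 0.334), and by -0.27 without WT replicate 2 or -0.24 without sg/sg replicate 4. The clone-derived probe starts at 114740532 on chromosome 9 in mm7, upstream of A_52_P579654 at 114881780 and of the leading probe at 114896915, all on the plus strand. Its difference between the tissues also ran opposite to that of the leading probe (-2.97 in WAT minus liver, against 1.95), so the direction of Osbpl10 in WAT is not settled by these probes.

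The remaining 6 genes did not pass in WAT. Osbp, the founding member, exchanges cholesterol for phosphatidylinositol 4-phosphate at the Golgi, and it differed by 0.00 (95% confidence interval -0.31 to 0.30), and by -0.09 without sg/sg replicate 4. Osbpl2, whose product is found on lipid droplets and brings cholesterol to the plasma membrane, differed by -0.12 (-0.31 to 0.07). Osbpl5, the ER-anchored relative of ORP8, differed by 0.03 (-0.32 to 0.38), and by -0.12 without WT replicate 2. These 3 intervals all leave out a change of 0.63, the smallest that passed among the members. Osbpl11, the partner of ORP9 in transport to the Golgi, differed by 0.17 (-0.02 to 0.35). Osbpl9 differed by 0.20 (-0.04 to 0.44) on its leading probe, 0.12 without sg/sg replicate 4, and by -0.11 (-0.77 to 0.55) on the other. Osbpl6, the closest relative of ORP3 together with ORP7, was dim and differed by 0.10 (-0.61 to 0.81), with 0.35 without WT replicate 2 and 0.32 without sg/sg replicate 4. None of the values given here without 1 array passed.

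In the second Osbpl9 probe, A_52_P194763, sg/sg WAT replicate 4 again stood far below its group. It read 0.19, 0.42, 0.08, -1.36 and 0.24 in sg/sg WAT, against 0.05, -0.17, 0.08, 0.06 and 0.11 in WT WAT. Without that array the change was 0.21 in place of -0.11, and neither value passed.

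Among the liver values, 15 of the 18 probes and 9 of the 10 genes were bright enough to be tested, and Osbpl6 was not. Of these 15 probes, 2 were called, both lower in sg/sg and both of Osbpl3, against 14.6% of all 24675 probes (8.1% higher and 6.49% lower). Nothing is read from this count, since the gene was chosen by it. The other 13 probes lay between -0.30 for Osbpl5 and 0.38 for Osbpl11. Osbpl11 averaged -0.46 ± 0.18 in sg/sg liver and -0.84 ± 0.18 in WT liver (SD, n = 5 each), with overlapping ranges. In the test of whether the genotype change differed between the tissues, 6 of 17 member probes were called, against 16.4% of all probes. That test contains the liver comparison, so this count is a description as well.

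**Figure D4:**
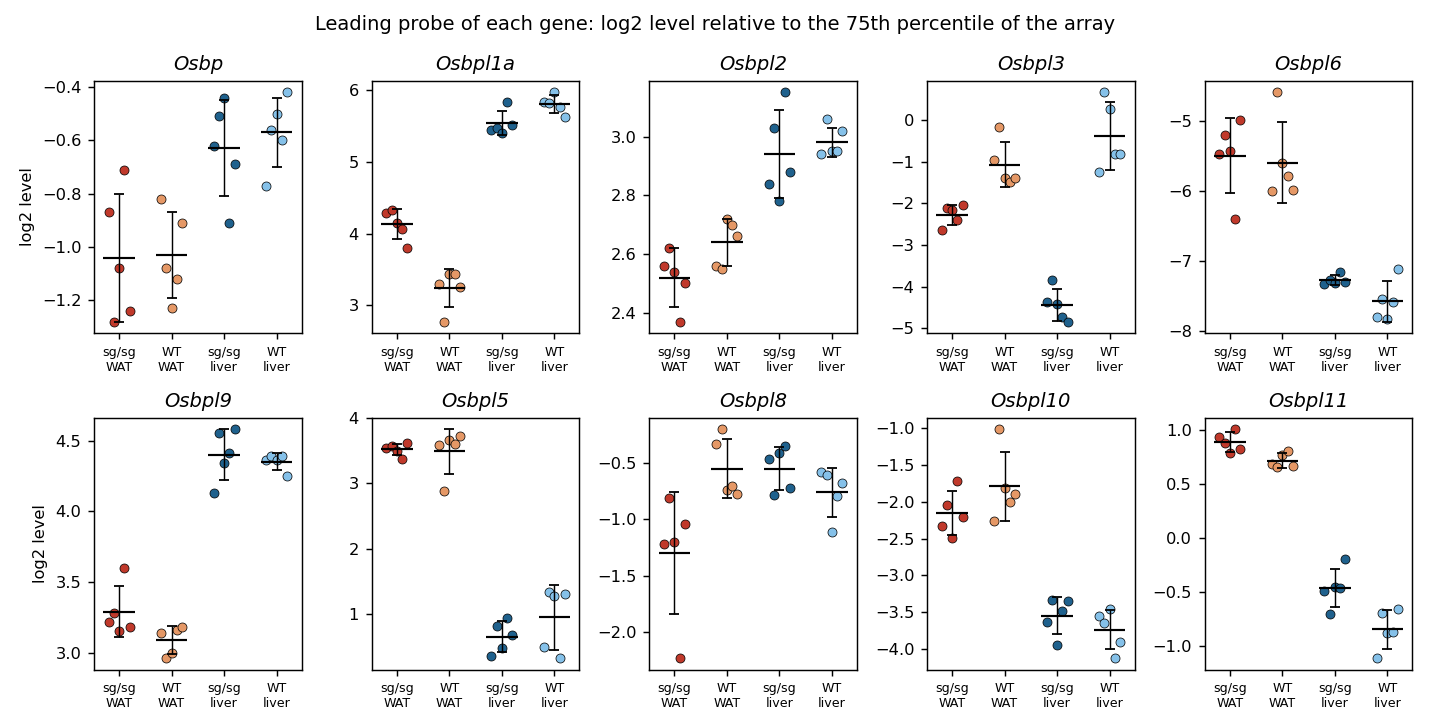
Log2 levels of the leading probe of each of the 10 genes, 1 point per array, in sg/sg WAT, WT WAT, sg/sg liver and WT liver, with the mean (line) and SD (bar) of 5 arrays on an axis of its own per gene. Osbpl5, Osbpl10 and Osbpl11 lie higher in WAT than in liver in both genotypes, Osbpl1a and Osbpl9 lower, Osbpl6 was not well above background on any liver array, and Osbpl3 shows its widest gap between the genotypes in liver.

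The 2 tissues differed in most members. In WT mice, 14 of the 15 tested probes of the 9 genes other than Osbpl3 were called between WAT and liver, 6 higher and 8 lower in WAT, against 74.4% of all 32644 probes (34.2% higher and 40.2% lower). Of the 6 higher, 2 were above background on fewer than 4 of the 5 WT livers: Osbpl6 on none and Osbpl10 A_52_P579654 on 1. The median difference was -0.46 over the 17 member probes with Osbpl3 and -0.13 for all probes. WAT and liver arrays were on different slides, so tissue and slide cannot be told apart. Most probes of the whole array were called as well, so nothing is read from the count of members.

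Osbpl5 was higher in WT WAT, with 3.59, 2.88, 3.66, 3.60 and 3.72, against 0.50, 1.34, 1.28, 0.32 and 1.31 in WT liver. The ranges were far apart, and the difference of 2.54 (SE 0.20) was 5.82-fold (limma adjusted p = 1.04e-09). Its ER-anchored relative Osbpl8 differed by 0.78 (limma adjusted p = 0.00258) and 0.21 (limma adjusted p = 0.371) on its 2 probes. The first did not pass under normexp, at 0.51 (limma adjusted p = 0.18), and the second was 0.12 without WT WAT replicate 2. Osbpl11 was higher in WAT by 1.56 (limma adjusted p = 4.06e-11). Osbpl6 was above background on all 5 WT WAT arrays and on no WT liver array. The lowest level above background on each WT liver array averaged -5.41 and ran from -5.89 to -4.82. The WT WAT mean of Osbpl6, -5.59, lay inside that range, so no fold and no direction is given.

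Osbpl1a was lower in WAT on all 3 probes, with differences of -2.57, -1.94 and -0.76. The sg/sg WAT level of the leading probe, 4.13 ± 0.21, still lay below the sg/sg liver level of 5.54 ± 0.17 (SD, n = 5 each), without overlap. Osbpl9 was lower in WAT, at -1.26 and -2.09, and Osbp at -0.46, or -0.33 under normexp, where it did not pass (limma adjusted p = 0.0647). Osbpl2 was lower, at -0.34 (limma adjusted p = 0.000883), but with quantile normalization it was higher by 0.10 (limma adjusted p = 0.337), and under normexp it was -0.25 (limma adjusted p = 0.118). Osbpl10 split by probe: the leading probe was higher in WAT by 1.95, while A_52_P423276 was lower, at -2.97. A_52_P579654 differed by 1.36 (limma adjusted p = 0.0339), with 1 of 5 WT liver arrays above background. That call was lost with median scaling (limma adjusted p = 0.0535) and without any 1 of WT liver replicates 3, 4 and 5 and WT WAT replicates 2 and 3 (limma adjusted p up to 0.0956). Osbpl6 and A_52_P579654, both dim in liver, turned to -0.60 and -0.41 under normexp, without passing.

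Cell type markers moved with genotype in WAT beside these changes. Of 8 macrophage markers, 6 were lower in sg/sg WAT and none higher, and their summed level was 31.4 to 52.9 in sg/sg WAT and 59.1 to 126 in WT WAT, with the highest value in WT replicate 2. Of 9 adipocyte markers, 5 were higher and 1 (Lep, leptin) was lower in sg/sg WAT, with summed levels of 878 to 1190 in sg/sg and 475 to 782 in WT, the lowest again in WT replicate 2. Of 5 fibroblast markers, 3 were lower, and none of 6 endothelial or 5 T and B cell markers passed. In liver, 4 of 7 macrophage markers were higher in sg/sg, with sums of 44.7 to 74.4 in sg/sg and 31.8 to 50.5 in WT. There 2 of 6 endothelial markers, 1 of 8 hepatocyte markers and 1 of 4 T and B cell markers were higher too, and none of 5 fibroblast markers passed. Only slide 2 held both genotypes in liver, with 1 WT array, so genotype and slide are largely mixed in these liver calls. In WAT, 1 of 7 hepatocyte markers was lower. With 1 probe per gene, 23.8% of all genes were called in WAT and 16.3% in liver. The marker counts are to be read against these shares, and nothing is read from counts of 1 marker. The part of these shifts in the changes of Osbpl1a, Osbpl3 and Osbpl8 was not tested.

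Genes that work beside the family were read from 3 lists. Of 35 contact site and lipid transfer entries tested in WAT, 5 were higher and 6 lower in sg/sg, with a median change of 0.03. Cert1 and Col4a3bp are names of the same gene, which was entered under both and was called under neither. The counts of the 3 lists are to be read against the same shares, 23.8% of all genes in WAT and 16.3% in liver. Npc1 and Npc2, which together release cholesterol from lysosomes, were both lower, at -0.52 (limma adjusted p = 0.0139) and -0.55 (limma adjusted p = 0.00233). Pltp, which transfers phospholipids between lipoproteins, was 2.35-fold lower, with means of 1.77 ± 0.50 in sg/sg WAT and 3.0 ± 0.47 in WT WAT (SD, n = 5 each, limma adjusted p = 0.0121). Pitpna, a phosphatidylinositol transfer protein, was lower, at -0.50, and Scp2, a sterol carrier of peroxisomes, was higher by 0.57. In liver, 1 of 34 entries of this list was higher in sg/sg and 1 lower. The lower one was Npc1, at -0.32, and the higher one Vps13a, at 2.53. Within slide 2, the only liver slide with both genotypes, Npc1 differed by -0.3 and Vps13a by -0.07.

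Among 15 enzymes of phosphoinositide and phosphatidylserine metabolism, none was higher and 2 were lower in sg/sg WAT. Both make phosphatidylinositol 4-phosphate, the lipid that many oxysterol-binding proteins exchange: Pi4k2a was lower, at -0.57 (limma adjusted p = 0.0297) and Pi4k2b at -0.42 (limma adjusted p = 0.0463). The other 2 phosphatidylinositol 4-kinases of the list had positive values that did not pass, 0.66 for Pi4kb (limma adjusted p = 0.106) and 0.15 for Pi4ka (limma adjusted p = 0.199). In liver 3 of 14 were higher and none lower. Of 21 genes of oxysterol synthesis and sensing, 3 were higher and 1 lower in WAT. Those higher were Hsd11b1, which acts on glucocorticoids and on oxysterols, by 1.07 (limma adjusted p = 0.00566), Srebf1, a sterol-regulated transcription factor of lipid synthesis, by 0.90 (limma adjusted p = 0.00344), and Hsd3b7, an enzyme of bile acid synthesis, by 0.57. The lower one was Abcg1, a cholesterol exporter, at -0.95 (limma adjusted p = 0.021), with means of 1.58 ± 0.41 in sg/sg WAT and 2.53 ± 0.43 in WT WAT (SD, n = 5 each). In liver 3 of 20 were higher and none lower. The liver counts of these lists are limited by the slides, since only slide 2 held both genotypes there.

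The genes whose levels followed those of Osbpl3 most closely were found by the root mean square (RMS) difference between log2 levels over the 20 arrays, each gene centred on its own mean. Over 22411 genes the median difference was 1.81, and the 2 Osbpl3 probes differed from each other by 0.636. The nearest was Stap1, an adaptor protein of tyrosine kinase signalling, at 0.735, with means of -2.90 in sg/sg WAT, -0.85 in WT WAT, -5.19 in sg/sg liver and -1.74 in WT liver. Zfp979, a zinc finger gene, followed at 0.836, with a liver difference of -4.52 and a WAT difference of -0.28. Ttc39a, a tetratricopeptide repeat gene, at 0.907, was lower in sg/sg in both tissues, with differences of -2.20 in WAT and -2.56 in liver. In sg/sg liver, Stap1 and Ttc39a were above background on 1 of 5 arrays each, and Zfp979 on 2. Their sg/sg liver levels and liver differences thus rest on signals near background. Cgref1 at 1.01, Hebp2 at 1.03 and the checkpoint kinase gene Chek1 at 1.04 came next, the last being above background on no sg/sg liver array and on 2 of 5 WT liver arrays. The other 2 of the 8 nearest were transcripts without a gene symbol, at 0.788 and 1.02. The first of them was above background on 2 of 5 sg/sg liver arrays. Since the ranking uses the liver arrays, on which Osbpl3 was chosen, it is a description.

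**Figure D5:**
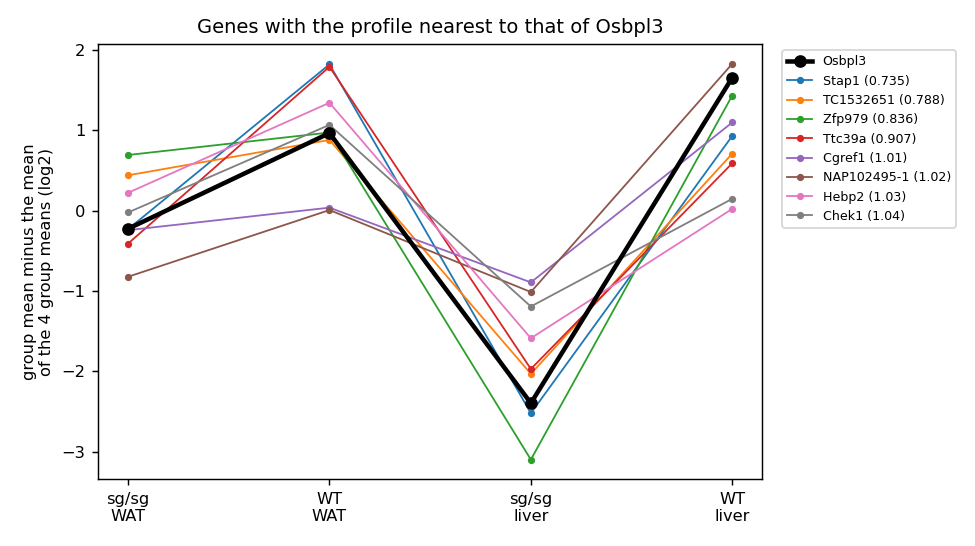
Group means (log2) of Osbpl3 and of the 8 genes with the nearest profile, each minus the mean of its own 4 group means, in sg/sg WAT, WT WAT, sg/sg liver and WT liver; the number beside each gene is the RMS difference over 20 arrays. All 9 lines have their lowest point in sg/sg liver and lie higher in WT than in sg/sg in both tissues. Stap1, Zfp979, Ttc39a and Chek1 were above background on at most 2 of the 5 sg/sg liver arrays.

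RORα binds DNA as a monomer at the letters AGGTCA after an A/T-rich stretch, so the promoters of the members were searched for AGGTCA and for TAGGTCA, on both strands. The 250 bases before the annotated start, from RefSeq with build GRCm38.p6, were available as 12 promoters of 8 of the 10 genes. AGGTCA was found in 1 of the 12, that of Osbpl2, 210 bases before the start, and in 14.0% of 32851 promoters of the same length. TAGGTCA, which contains AGGTCA, was found in none of the 12 and in 2.23% of all promoters. The Osbpl3 promoter is shown because its RNA had the widest difference, on the minus strand at chr6:50456171-50456420. It holds neither motif, and these windows say nothing of sites further away.
Osbpl3 promoter: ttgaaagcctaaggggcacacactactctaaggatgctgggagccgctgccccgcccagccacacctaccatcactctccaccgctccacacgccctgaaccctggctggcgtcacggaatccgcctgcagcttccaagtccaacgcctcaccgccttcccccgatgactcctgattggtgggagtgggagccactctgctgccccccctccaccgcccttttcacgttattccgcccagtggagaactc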

How the data were processed

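Total RNA of 20 tissue samples was labelled with Cy3 and hybridised to 1 Agilent array each, per the labels. The deposited intensity values are the processed signals of Agilent Feature Extraction 9.5, background-subtracted by the scanner software per the file headers, and the deposited flags of other columns mark outlier spots, saturation and signal well above background. The deposited value table held the same processed intensity values.

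Control spots and outlier-flagged values were left out, spots of a probe were averaged, and each array was scaled to its 75th percentile before log2. Probes that the scanner flagged as well above background on 4 or more of a tissue's 10 arrays were tested with limma 3.58.1 (R 4.3.3) on 5 against 5 arrays, with Benjamini-Hochberg adjustment over all probes and a threshold of 0.05. The tissue difference and its change with genotype came from 1 fit to all 20 arrays. The precision is limited by 5 arrays a group. The p-values set each difference against the spread between these samples, which also holds differences between slides and arrays. The code was tested on simulated data.

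Named genes are every probe of the 10 members, Rora, up to 5 genes per list with the smallest p in WAT among those past the threshold, list genes past it in both tissues, and the 8 nearest profiles to Osbpl3. Further list genes and markers are named where they bear on a count. A leading probe is the brightest of a gene. The members and lists were chosen with earlier results of these data known. Symbols were updated through RefSeq accessions for 55.7% of probes and kept as in the files for the rest. Alternatives changed the scaling, background correction, filter, probes per gene, blocks and arrays used.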

Additional observations from a re-analysis of the deposited data

Results flagged for a closer look

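Within the groups of 5, 38 sets of leading-probe levels were examined for an array far from the other 4 (gap over range above Dixon's 95% critical value), and 6 were found, where chance gives about 1 in 20. Of these, 3 were WT WAT replicate 2: 2.77 for Osbpl1a, 2.88 for Osbpl5 and -4.59 for Osbpl6, the first 2 below and the last above the other WT WAT arrays. The others were Osbpl1a in sg/sg liver replicate 4 (5.84, high), Osbpl8 in sg/sg WAT replicate 4 (-2.23, low) and Osbpl9 in WT liver replicate 5 (4.25, low).

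The genotype change in WAT minus that in liver was 1.16 for Osbpl1a, 2.86 for Osbpl3 and -0.96 for Osbpl8 on their leading probes. These differences contain the liver comparison by which the genes were chosen, so they are given as values with no test.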

How the results depend on the processing

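The cause of each change listed here was not tested. In liver, 1245 probes were called with no filter on dim probes, 3 with slide as a fixed block and 0 within slide 2 (2004 and 1962 by limma's unadjusted p below 0.05), against 3601 in the main setting. Leaving out 1 array gave 1158 to 4106, with 2123, 1465 and 1158 without WT replicates 2, 3 and 4, and 2146 and 2229 without sg/sg replicates 3 and 5. Higher calls in liver were 865 of 3156 with median scaling and 1542 of 3185 with quantile normalization, against 1999 of 3601. In WAT, normexp gave 1492 calls in place of 7083, and 2149 in place of 5346 for the change with tissue. Within slides 4, 5 and 6, limma called 0 probes in WAT each (4781, 5078 and 4310 unadjusted), and so 0 member probes. Of the 5 member probes called in WAT, 1 was called under normexp and 2 with 1 probe per gene, while leaving out 1 array gave 4 to 6.

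Deviations of same-numbered arrays from their groups correlated between -0.14 and 0.17, within and between tissues. Between WAT and liver of the same genotype the range was -0.1 to 0.17. These low values do not decide whether equal numbers in WAT and liver mark a shared animal, since its tissues need not deviate alike. With the replicate block, 1663 probes were called in liver and 4490 in WAT. Within a tissue that block pairs sg/sg and WT arrays of equal number, which are different mice. It therefore does not bear on whether WAT and liver share an animal. Under the block Osbpl3 in WAT had a limma adjusted p of 0.0257, and the Osbpl10 clone probe one of 0.0992.

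Among the WAT genotype values, those that changed sign had not been called. Osbp in WAT was 0.00 with median scaling and with quantile normalization, 0.15 under normexp, 0.01 with the slide block, 0.03 and 0.23 within slides 4 and 6, and -0.09 to 0.06 with 1 array left out. Osbpl5 was 0.00 with quantile normalization, -0.14 under normexp, -0.02 with the slide block, -0.15 and -0.16 within slides 4 and 5, and -0.12 to 0.09 with 1 array left out. Osbpl1a A_52_P18705 was 0.00 with median scaling, 1.19 under normexp, 0.09 with the slide block, 0.39 and 0.15 within slides 5 and 6, and -0.12 to 0.10 with 1 array left out. Osbpl9 A_52_P194763 was 0.08 under normexp, 0.05 and 0.25 within slides 5 and 6, and -0.24 to 0.21 with 1 array left out. Osbpl9 A_51_P272844 was -0.02 within slide 5. Osbpl6 was -0.28 within slide 6 and -0.03 to 0.35 with 1 array left out. Osbpl10 A_51_P461108 was 0.03 under normexp and 0.16 within slide 4. Under normexp Osbpl10 A_52_P579654 was 0.83 and Osbpl3 A_52_P360308 was 0.81. In the WT tissue difference, 3 called values changed sign and lost the call: normexp gave -0.41 for Osbpl10 A_52_P579654 and -0.60 for Osbpl6, and quantile normalization gave 0.10 for Osbpl2.

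Dim probes (Osbpl6, A_52_P18705, A_52_P360308, A_52_P423276 and A_52_P579654) sit near background, and changes in them depend on how background was subtracted.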
